A study of Mus musculus with 21 samples.

Results

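The 10 genes described here mark the cells of the small vessels of the brain. Of the 64361 genes in the count table, they are the 10 whose symbol is Cldn5, Pecam1, Flt1, Slco1a4, Mfsd2a, Slc2a1, Abcb1a or Vwf (8 endothelial genes) or Pdgfrb or Rgs5 (2 pericyte genes). Prime-seq, a bulk RNA-seq method that counts tags from the 3' end of each polyadenylated transcript, was applied to 2 dissected brain tissues, cortex and hippocampus, of transgenic (GA-Camk2a) and control animals. GA-Camk2a mice carry a GFP-tagged poly-GA transgene, the dipeptide repeat protein made from the C9orf72 expansion of ALS and frontotemporal dementia, which Camk2a-Cre switches on in excitatory neurons, and the controls are given in the labels only as controls. All mice were taken at 30 to 40 weeks, when the transgenic mice had reached their humane endpoint. The 21 libraries fell into 4 groups: cortex of control mice (n = 5), cortex of GA-Camk2a mice (n = 6), hippocampus of control mice (n = 4) and hippocampus of GA-Camk2a mice (n = 6). The study's text gives the control numbers of these tissues the other way round, and the labels were followed here. They came from 11 mouse numbers, of which 10 gave a library from each tissue, and from 2 batches named in the labels, with both genotypes in each batch. The labels do not say outright that each number is a separate animal, so the p-values measure the spread between these libraries.

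Brain capillaries are lined by endothelial cells that are sealed by tight junctions and allow little transport through vesicles, so that nutrients cross by carriers and drugs are pumped back into the blood. Pericytes lie on the outer side of these capillaries within a shared basement membrane, and signals between pericytes and endothelium keep the barrier in place. Larger vessels carry smooth muscle in place of pericytes.

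Total counts per library ranged from 1048201 to 5888102, and each of the 10 genes had between 3 and 316 counts in a library. Levels are given as CPM, counts per 1000000 of the TMM-scaled library total. Markers of the cell types of brain tissue were present in every group, but they were not chosen to tell cortex from hippocampus, and the identity of the dissected region was not checked. Summed levels of some cell types differed between the genotypes. In the cortex, 6 excitatory neuron markers summed to between 1979 and 2231 CPM in controls and to between 1258 and 1678 CPM in GA-Camk2a mice. There, 8 microglial markers summed to between 205 and 234 CPM in controls and to between 447 and 671 CPM in GA-Camk2a mice. In the hippocampus, 6 neuronal markers summed to between 2082 and 2562 CPM in controls and to between 1060 and 1368 CPM in GA-Camk2a mice, and 7 astrocyte markers to between 1961 and 2158 CPM and to between 3281 and 4282 CPM. Sums of oligodendrocyte markers overlapped between the genotypes. They were 2399 to 2680 CPM in control cortex and 2499 to 3296 CPM in GA-Camk2a cortex. In the hippocampus they were 2219 to 2782 CPM in controls and 2005 to 3785 CPM in GA-Camk2a mice. Markers of choroid plexus and ependyma, which border the hippocampus, ranged from 1806 to 33245 CPM in control hippocampus and from 1720 to 54311 CPM in GA-Camk2a hippocampus. The GFP of the transgene gave too few counts to check the labels, at 0 to 4 counts in GA-Camk2a cortex and 0 to 2 in control cortex.

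The genotype comparison asks whether vessel genes differed between GA-Camk2a and control mice in each tissue. In the hippocampus, 1 of the 10 genes, Vwf, passed an adjusted p of 0.05 (edgeR quasi-likelihood F-test with Benjamini-Hochberg adjustment), against 10.9% of the 14884 genes tested. At an unadjusted p under 0.05 there were 6 of 10 genes, against 24.7% of all genes. In the cortex, 0 of 10 passed the same test, against 12.5% of 13058 genes, with 3 of 10 at an unadjusted p under 0.05 against 25.9% of all genes, and 0 of 10 without overlap between the groups against 6.81%. DESeq2, with and without the batch term, also called 0 of 10 in the cortex and 1 of 10 in the hippocampus. The fold change was above 0 for 7 of 10 genes in the cortex and for 9 of 10 in the hippocampus, against 49.3% and 52.2% of all genes tested. The median log2 fold change of the 10 genes was 0.36 in each tissue, against -0.0050 over all genes in the cortex and 0.016 in the hippocampus. The cortical median moved to 0.19 without control mouse 38, 0.47 without control mouse 31 (9 genes tested) and 0.17 in batch 2 alone (8 genes tested). The hippocampal median was 0.26 in batch 1 alone and 0.45 in batch 2 alone. In bulk tissue, a change in the number of cells of a type and a change in RNA per cell cannot be told apart, so each level below is that of the tissue. Levels are also shares of a library total, and the excitatory neuron markers had median log2 fold changes of -0.63 in the cortex and -0.87 in the hippocampus. The part of this fall in the levels of the 10 genes was not tested. By group mean, GA-Camk2a hippocampus was the highest of the 4 groups for 8 of the 10 genes, the exceptions being Cldn5 (GA-Camk2a cortex) and Pecam1 (control cortex), and control cortex was the lowest for 6.

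**Figure D1:**
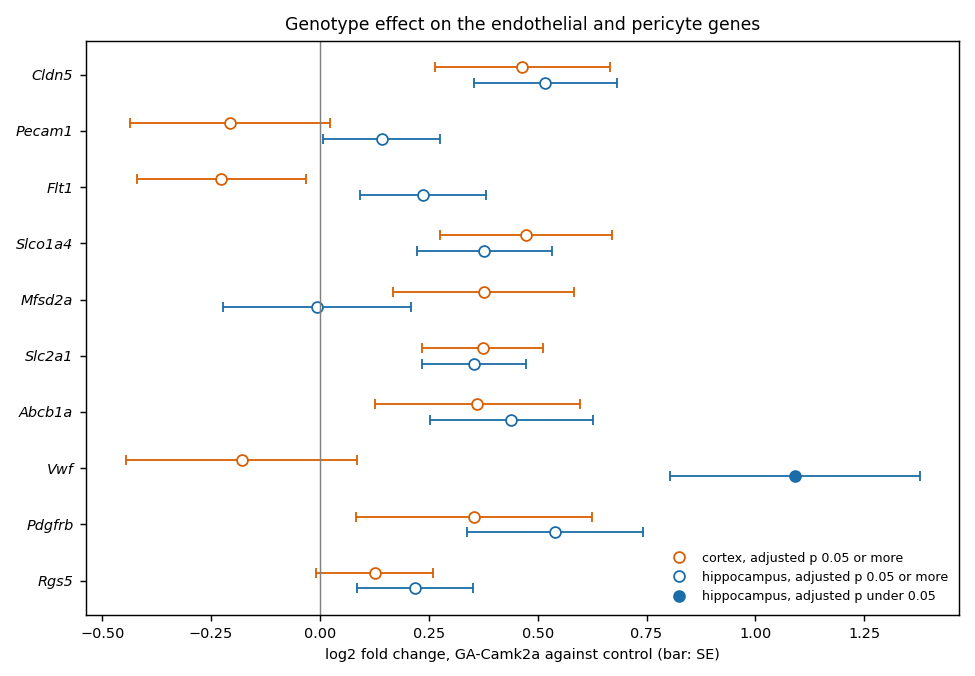
Log2 fold change between GA-Camk2a and control mice (x axis, with its SE as a bar) for each of the 10 genes, in cortex (orange) and hippocampus (blue). Vwf in the hippocampus, at 1.09, is the only filled point (adjusted p under 0.05), and 7 cortex points and 9 hippocampus points lie above 0.

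Vwf, which encodes von Willebrand factor, the clotting protein that endothelial cells store and release, rose in the hippocampus of GA-Camk2a mice. Its 4 control hippocampus libraries had 4.14, 5.21, 5.67 and 7.32 CPM (13 to 24 counts). The 6 GA-Camk2a libraries ranged from 7.82 CPM through a median of 9.31 to 20.1 CPM (16 to 41 counts). The groups did not overlap, as was so for 10.5% of all genes tested, and mice 23 (20.1 CPM) and 16 (14.2 CPM) were the highest. The mean was 5.59 ± 1.32 CPM in controls (SD, n = 4) and 11.4 ± 4.85 CPM in GA-Camk2a mice (SD, n = 6). The log2 fold change was 1.09 (SE 0.29, adjusted p = 0.0233, edgeR). The call was lost without GA-Camk2a mouse 16 (log2 fold change 0.95, adjusted p = 0.0601), control mouse 20 (0.85, adjusted p = 0.127) or control mouse 37 (adjusted p = 0.0601), and within batch 1 (0.87, adjusted p = 0.366) and batch 2 (1.34, adjusted p = 0.0882). Summed choroid plexus and ependymal markers reached 33245 CPM in controls. They were at 8723 CPM in mouse 23 and 54311 CPM in mouse 16, and at 48300.2 CPM in mouse 30 and 45467 CPM in mouse 35, whose Vwf was 7.82 and 8.82 CPM, and the part of these markers in the Vwf level was not tested.

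In the cortex, Vwf showed no such difference. Control libraries had 3.90, 4.79, 5.07, 5.92 and 9.17 CPM. GA-Camk2a libraries ranged from 2.84 CPM through a median of 5.04 to 6.23 CPM, with 3 to 13 counts each, and the groups overlapped. The log2 fold change was -0.18 (SE 0.27, adjusted p = 0.746, edgeR). Set against its effect in the cortex, the effect of genotype in the hippocampus was higher by 1.23 on the log2 scale (SE 0.40, unadjusted p = 0.00515), which did not pass the adjustment (adjusted p = 0.227; 0.169 to 0.917 over the alternatives), and 0 of the 10 genes passed this interaction test by edgeR or DESeq2, against 0.4% of 14751 genes, with 1 of 10 at an unadjusted p under 0.05 against 10% of genes.

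Within mice, Vwf was higher in the hippocampus than in the cortex in 6 of 6 GA-Camk2a mice and in 3 of 4 control mice. The tissue difference in GA-Camk2a mice was 1.14 on the log2 scale (SE 0.27, adjusted p = 0.00403, edgeR), and in controls -0.034 (SE 0.28, adjusted p = 0.958). Mouse 16, at the low end of the cortex with 2.84 CPM, was the second highest in the hippocampus with 14.2 CPM.

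Cldn5, the main claudin of the endothelial tight junction, did not pass the adjusted threshold between the genotypes in either tissue. In the cortex, controls had 10.7, 12.4, 15.3, 15.4 and 23.7 CPM. GA-Camk2a libraries ranged from 14.2 CPM through a median of 21.4 to 33.6 CPM. The highest control, mouse 31, lay among the GA-Camk2a libraries, and the groups overlapped. The log2 fold change was 0.46 (SE 0.20, adjusted p = 0.142, edgeR). In the hippocampus, controls had 9.31, 11.8, 13.2 and 13.5 CPM and GA-Camk2a libraries 13.2 CPM to 19.0 CPM with a median of 16.8 CPM. Only the lowest GA-Camk2a library, that of mouse 35, fell below the highest control, and the log2 fold change was 0.52 (SE 0.16, adjusted p = 0.0575). Cldn5 was lower in the hippocampus than in the cortex in 4 of 4 control mice and in 5 of 6 GA-Camk2a mice, but the tissue difference of -0.42 in controls (SE 0.22, adjusted p = 0.208) and -0.37 in GA-Camk2a mice (SE 0.17) did not pass.

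Of the 4 transport genes, Slc2a1 encodes GLUT1, the glucose carrier of the barrier, which glia also express. Control cortex had 27.5, 39.7, 43.1, 45.8 and 47.0 CPM of Slc2a1. GA-Camk2a cortex ranged from 41.7 CPM through a median of 53.3 to 64.3 CPM. All GA-Camk2a libraries but that of mouse 41 lay above every control, and the log2 fold change was 0.37 (SE 0.14, adjusted p = 0.0869, edgeR). Without mouse 41 the difference passed (0.44, adjusted p = 0.0370), as it did with counts thinned to the smallest library (0.50, adjusted p = 0.0348). In the hippocampus, controls had 45.7, 51.2, 52.4 and 63.0 CPM. GA-Camk2a libraries ranged from 53.9 CPM through a median of 65.5 to 83.8 CPM, the last of them mouse 16. The groups overlapped through control mouse 37, and the log2 fold change was 0.35 (SE 0.12, adjusted p = 0.0714).

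Slco1a4, an organic anion transporter largely restricted in the brain to endothelium, differed between the tissues and did not pass between the genotypes. Control cortex had 8.77, 15.3, 17.5, 20.2 and 20.9 CPM. GA-Camk2a cortex ranged from 17.2 CPM through a median of 22.6 to 34.8 CPM. The groups overlapped, and the log2 fold change was 0.47 (SE 0.20, adjusted p = 0.128, edgeR). Control hippocampus had 25.9, 26.3, 29.3 and 30.9 CPM. GA-Camk2a hippocampus ranged from 21.5 CPM through a median of 38.5 to 44.1 CPM. Mouse 34 was below all controls and the others above them. The log2 fold change was 0.38 (SE 0.15, adjusted p = 0.142), and it passed without mouse 34 (0.48, adjusted p = 0.0128).

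Abcb1a, which encodes the drug efflux pump P-glycoprotein, had a cortical log2 fold change of 0.36 (SE 0.24, adjusted p = 0.356, edgeR), with 5.84 to 12.9 CPM in controls and 6.23 to 14.8 CPM in GA-Camk2a mice. In the hippocampus it was 0.44 (SE 0.19, adjusted p = 0.157), with 8.79 to 15.8 CPM and 11.6 to 17.2 CPM. Mfsd2a, the lipid carrier that keeps vesicle transport low in brain endothelium, ranged from 6.11 to 11.2 CPM in control cortex and from 9.80 to 17.2 CPM in GA-Camk2a cortex, with a log2 fold change of 0.38 (SE 0.21, adjusted p = 0.263). In the hippocampus its controls ranged from 9.57 to 17.0 CPM and its GA-Camk2a libraries from 8.58 to 16.3 CPM. The log2 fold change there was -0.0071 (SE 0.22, adjusted p = 0.991), and its sign changed with the setting.

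**Figure D2:**
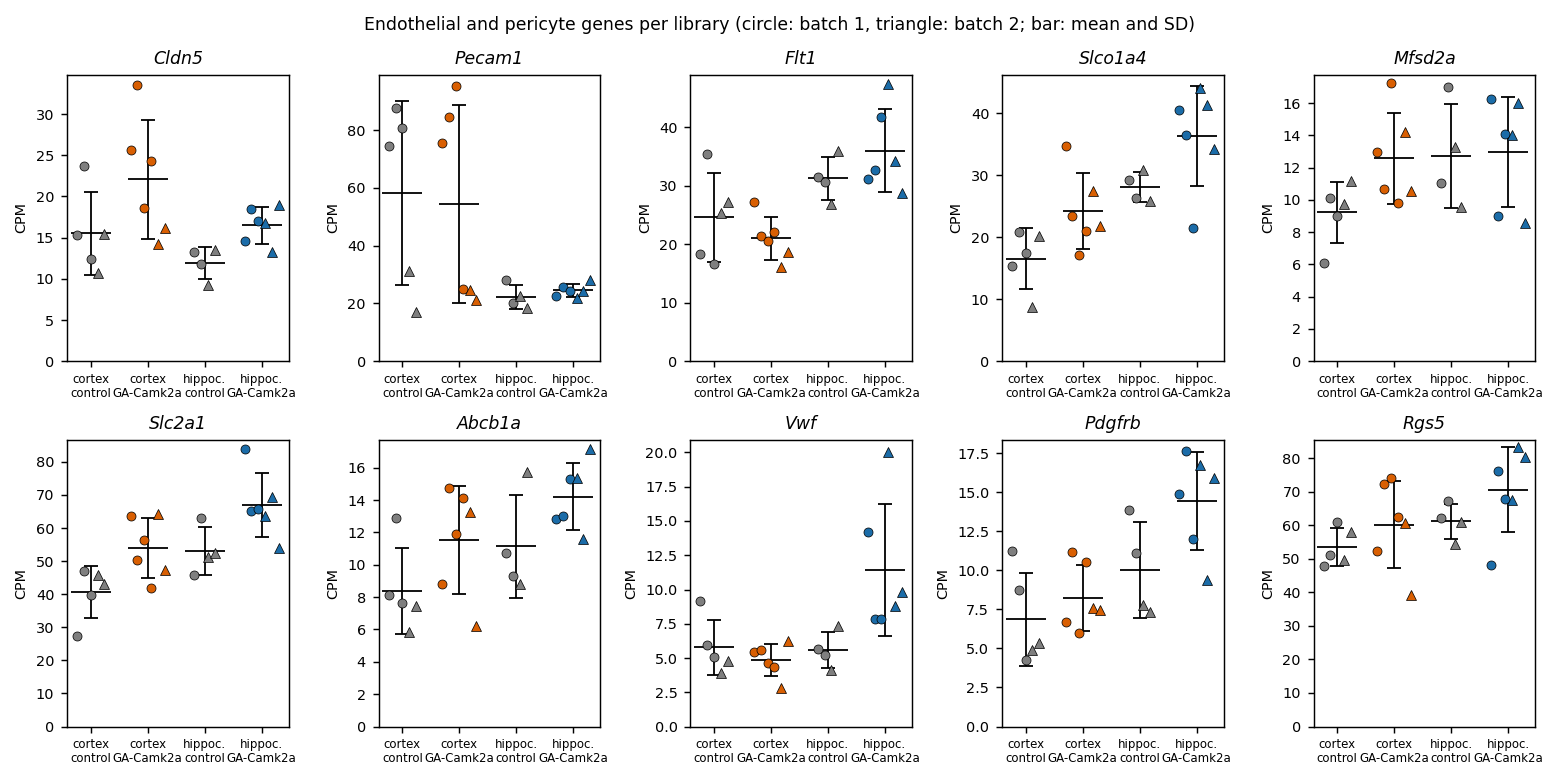
Level of each gene in CPM (y axis, from 0) in every library of the 4 groups (x axis), with the mean and SD as a bar, circles for batch 1 and triangles for batch 2. Vwf in GA-Camk2a hippocampus, at 7.82 to 20.1 CPM, lies above its hippocampus controls (4.14 to 7.32 CPM), while 1 control cortex library reaches 9.17 CPM, and Pecam1 in the cortex falls into values of 74.4 CPM and above and of 31.2 CPM and below.

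The promoters of Cldn5, Slco1a4 and Slc2a1 are shown because these 3 genes were at an unadjusted p under 0.05 between the genotypes in both tissues. The windows are those of RefSeq on GRCm38.p6, 250 bases before to 50 bases after each start, 5′ to 3′ on the strand of the gene: Cldn5 at chr16:18776597-18776896 (plus strand), Slco1a4 at chr6:141856171-141856470 (minus strand) and Slc2a1 at chr4:119108495-119108794 (plus strand). Capitals mark matches, on either strand, to 6 letter strings that factors active in endothelium are known to read: GGAAGT (ETS), ACAAAG and ATTGT (SOX), GTAAACA (FOX), CTTTGA (TCF/LEF) and CACGTG (E-box).
Cldn5: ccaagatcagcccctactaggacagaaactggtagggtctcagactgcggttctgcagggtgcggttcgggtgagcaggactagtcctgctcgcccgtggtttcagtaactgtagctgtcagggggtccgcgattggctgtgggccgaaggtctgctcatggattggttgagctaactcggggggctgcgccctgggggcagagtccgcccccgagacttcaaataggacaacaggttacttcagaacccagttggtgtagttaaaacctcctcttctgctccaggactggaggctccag
Slco1a4: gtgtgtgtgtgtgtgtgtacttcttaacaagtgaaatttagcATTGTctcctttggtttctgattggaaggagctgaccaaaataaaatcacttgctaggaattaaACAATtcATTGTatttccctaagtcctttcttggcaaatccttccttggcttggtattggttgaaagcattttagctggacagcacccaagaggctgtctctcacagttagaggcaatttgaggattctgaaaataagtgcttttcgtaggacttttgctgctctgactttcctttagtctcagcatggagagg
Slc2a1: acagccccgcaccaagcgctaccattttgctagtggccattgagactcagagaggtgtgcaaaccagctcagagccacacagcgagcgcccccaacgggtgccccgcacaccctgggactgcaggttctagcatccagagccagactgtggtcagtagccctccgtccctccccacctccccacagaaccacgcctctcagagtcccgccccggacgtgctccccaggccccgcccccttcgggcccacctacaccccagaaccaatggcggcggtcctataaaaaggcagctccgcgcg
Slco1a4 alone of the 3 holds a match, with 3 copies of ATTGT. Over the 7 of the 10 genes with a RefSeq window, ATTGT was found in 2, GGAAGT in 1, ACAAAG in 1, GTAAACA in 1, CTTTGA in 3 and CACGTG in 0. The shares of all 32817 windows of 300 bases with a match were 31% for ATTGT, 23.8% for GGAAGT, 18.7% for ACAAAG, 3.65% for GTAAACA, 16% for CTTTGA and 7.15% for CACGTG. A match describes the letters of the window and is no evidence of a site.

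Flt1, the VEGF receptor VEGFR1, which binds VEGF-A tightly and limits its signal, differed between the tissues in GA-Camk2a mice and did not pass between the genotypes. Control cortex had 16.6, 18.3, 25.3, 27.2 and 35.5 CPM. GA-Camk2a cortex ranged from 16.1 CPM through a median of 20.9 to 27.3 CPM and overlapped with controls, with a log2 fold change of -0.23 (SE 0.19, adjusted p = 0.500, edgeR). Without control mouse 31, the highest, the sign turned (0.038). In the hippocampus, controls had 26.9, 30.6, 31.5 and 36.0 CPM and GA-Camk2a libraries 28.8 to 47.5 CPM with a median of 33.4 CPM, a log2 fold change of 0.24 (SE 0.14, adjusted p = 0.336), which became -0.083 (adjusted p = 0.881) with counts thinned to the smallest library.

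Pdgfrb, the receptor through which endothelial PDGF-B recruits pericytes, and Rgs5, a regulator of G-protein signalling found in pericytes, did not pass between the genotypes in either tissue. Control cortex had 4.23, 4.87, 5.33, 8.71 and 11.2 CPM of Pdgfrb, and GA-Camk2a cortex 5.96 to 11.2 CPM with a median of 7.52 CPM. The groups overlapped, and the log2 fold change was 0.35 (SE 0.27, adjusted p = 0.443, edgeR). Control hippocampus had 7.32, 7.76, 11.1 and 13.9 CPM of Pdgfrb, and GA-Camk2a hippocampus 9.37 to 17.7 CPM with a median of 15.4 CPM. The lower part of the GA-Camk2a range overlapped with the controls, and the log2 fold change was 0.54 (SE 0.20, adjusted p = 0.104). Rgs5 ranged from 47.9 to 60.9 CPM in control cortex and from 39.2 to 74.2 CPM in GA-Camk2a cortex, and its log2 fold change was 0.13 (SE 0.13, adjusted p = 0.603). In the hippocampus it ranged from 54.5 to 67.1 CPM in controls and from 48.2 to 83.2 CPM in GA-Camk2a mice, with a log2 fold change of 0.22 (SE 0.13, adjusted p = 0.337).

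Pecam1, the endothelial adhesion molecule CD31, fell into separate sets of libraries in the cortex. Of its 11 cortex libraries, 6 had 74.4 to 95.4 CPM and 5 had 17.0 to 31.2 CPM, with none between. The high libraries were those of control mice 11, 31 and 38 and of GA-Camk2a mice 23, 30 and 34, all of batch 1. The low ones were those of control mice 20 and 37 and of GA-Camk2a mice 16 and 35, all of batch 2, and that of GA-Camk2a mouse 41, of batch 1. Both genotypes were thus on each side, and the genotype difference in the cortex was -0.21 on the log2 scale (SE 0.23, adjusted p = 0.619, edgeR).

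The cortical batch term of Pecam1 was -1.72 (batch 2 against batch 1; SE 0.27, adjusted p = 0.000276, edgeR), a term that passed for 2.54% of the genes tested. The batch term passed for none of the other 9 genes in the cortex and for 0 of 10 in the hippocampus, where it passed for 1.6% of genes. In the hippocampus, the 10 of these mice with a library there, all but control mouse 38, had 18.6 to 28.2 CPM of Pecam1. Controls there averaged 22.3 ± 4.14 CPM (SD, n = 4) and GA-Camk2a mice 24.5 ± 2.24 CPM (SD, n = 6), with a log2 fold change of 0.14 (SE 0.13, adjusted p = 0.564). Over 11433 genes with an average log2 CPM of at least 3 in the cortex, 118 others had the same 6 libraries above the same 5, and 77 had them below. The widest gaps among them, a choice made after the values were seen, were those of Gm29260, Pax8, Gm30340, Gm43652 and Synpr. Pax8, a transcription factor of thyroid and kidney development, had 47.0 to 112.5 CPM in the 6 and 2.66 to 8.35 CPM in the 5, against 1.10 to 5.44 CPM in the hippocampus. Synpr, a synaptic vesicle protein, had 373 to 740 CPM and 64.3 to 134 CPM, against 121 CPM at most in the hippocampus. What separates these cortex libraries was not tested.

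**Figure D3:**
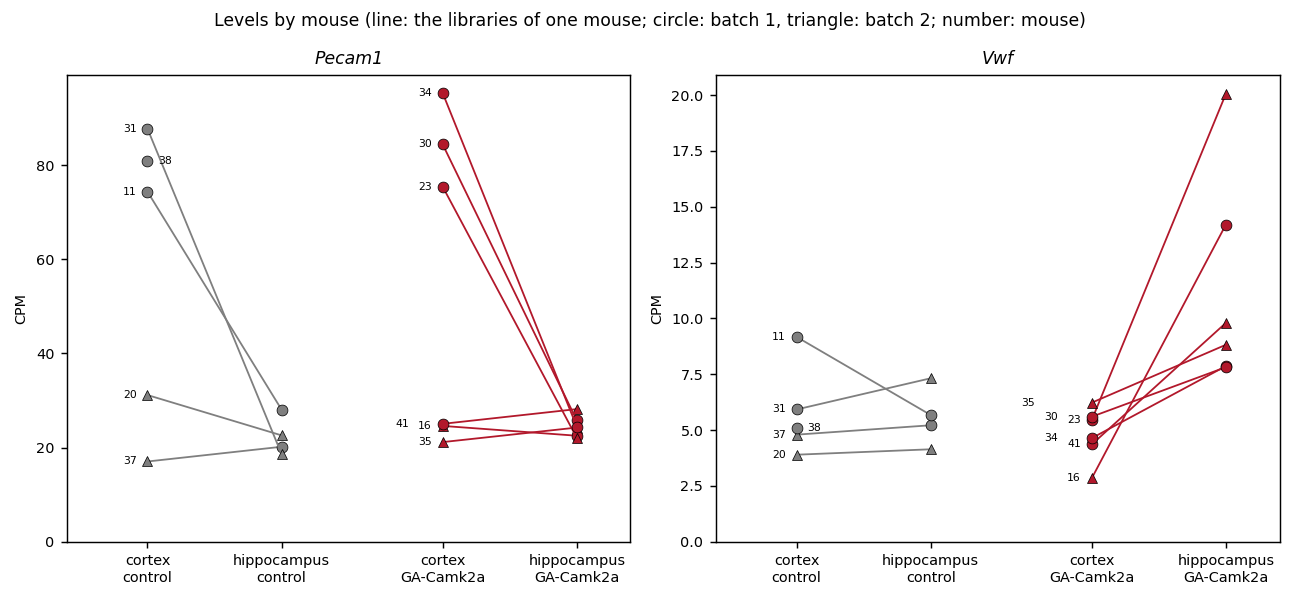
Level in CPM (y axis, from 0) of Pecam1 (left) and Vwf (right) in the cortex and hippocampus of each mouse (x axis, lines join the libraries of a mouse), with circles for batch 1 and triangles for batch 2. Pecam1 is at 74.4 CPM or above in 6 cortex libraries of both genotypes and at 31.2 CPM or below in all others, while the Vwf lines rise in 6 of 6 GA-Camk2a mice.

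The tissue comparison asks whether the vessel genes differ in level between hippocampus and cortex. In controls, 2 of 10 genes passed (edgeR, adjusted p under 0.05), against 16.3% of 14435 genes, and in GA-Camk2a mice 6 of 10, against 33.2% of 13098 genes. Slco1a4 was higher in the hippocampus in 10 of 10 mice, by 0.71 on the log2 scale in controls (SE 0.18, adjusted p = 0.0108) and by 0.57 in GA-Camk2a mice (SE 0.18, adjusted p = 0.0223). In controls, 1 of 10 genes, Slco1a4, did not overlap between the tissues, against 14.6% of all genes, and in GA-Camk2a mice 2 of 10, against 13.9%. Flt1 was also higher in 10 of 10 mice, with a difference of 0.79 in GA-Camk2a mice (SE 0.15, adjusted p = 0.000888) and of 0.30 in controls (SE 0.19, adjusted p = 0.322). The control value became 0.54 (adjusted p = 0.0295) without the cortex of mouse 31.

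Pdgfrb was 0.84 higher in GA-Camk2a hippocampus than cortex (SE 0.21, adjusted p = 0.00522, edgeR) and 0.72 higher in controls (SE 0.26, adjusted p = 0.0652). Slc2a1 was 0.38 higher in GA-Camk2a mice (SE 0.12, adjusted p = 0.0238) and 0.37 higher in controls (SE 0.14, adjusted p = 0.0873). Mfsd2a, Abcb1a, Rgs5 and Cldn5 did not pass in either genotype. Pecam1 was lower in the hippocampus by 1.17 in controls (log2 fold change -1.17, SE 0.25, adjusted p = 0.00376) and had a log2 fold change of -0.96 in GA-Camk2a mice (SE 0.30, adjusted p = 0.0219). This held within batch 1 (-1.78, adjusted p = 7.02e-06, and -1.47, adjusted p = 0.0117) and not within batch 2 (-0.068, adjusted p = 0.914, and 0.19, adjusted p = 0.676). In GA-Camk2a mice, DESeq2 with batch did not call Pecam1 (adjusted p = 0.0973) or Slc2a1 (adjusted p = 0.0660), and leaving out 1 library ended the call of Pecam1 (hippocampus of mouse 16, 30 or 34; adjusted p 0.0567 to 0.0661), Slco1a4 (hippocampus of 16 or 30, cortex of 35 or 41; 0.0504 to 0.0787) and Slc2a1 (hippocampus of 16, cortex of 30, 35 or 41; 0.0515 to 0.0796). The number of genes past the threshold in a genotype does not show that the tissues differ more in it, and the interaction test above passed for 0 of the 10.

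Beyond the groups, the 10 genes were weakly correlated. After group and batch means were removed, the median Pearson r over the 45 pairs was 0.10 in the 11 cortex libraries and 0.054 in the 10 hippocampus libraries, a description in which all pairs share their libraries and depths. The pairs ranged from -0.69 (Vwf and Rgs5) to 0.82 (Mfsd2a and Slc2a1) in the cortex and from -0.83 (Pecam1 and Slc2a1) to 0.85 (Cldn5 and Abcb1a) in the hippocampus. Mfsd2a and Slc2a1, the pair with the highest r in the cortex, had 0.73 in the hippocampus. The other pairs among Slco1a4, Mfsd2a, Slc2a1 and Abcb1a had 0.10 to 0.31 in the cortex and -0.58 to 0.26 in the hippocampus. The pericyte genes Pdgfrb and Rgs5 had an r of -0.29 and 0.12. Over 11559 genes and all 21 libraries, the 5 genes whose deviations were most like the mean of the 10 were Fyco1 (r = 0.84), Hecw1 (0.82), Nav2 (0.81), Sestd1 (0.80) and Bmp1 (0.80). As the highest of 11559 values they are no evidence of a link, and the spread of r over all genes was not examined.

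Other genes of the vessel wall, 140 genes in 11 lists by role, were counted beside the 10. In the cortex, 19 rose and 2 fell of the 89 tested (23.6% called, against 12.5% of all genes), with a median log2 fold change of 0.33 against -0.0050. In the hippocampus, 20 rose and 1 fell of 111 tested (18.9%, against 10.9%), with a median of 0.34 against 0.016. DESeq2 with batch called 11 and 12 of them in place of 21 and 21. Of the genes named below it did not call Tagln, Tfrc, Cldn12, Id1, Vcam1, Ackr1, Sox17 and Cavin1 in the cortex (adjusted p 0.0509 to 0.175) or Vtn, Atp13a5, Slco2b1, Emcn, Ackr1 and Cavin3 in the hippocampus (0.0605 to 0.172). Many of these genes are also expressed by astrocytes or microglia, whose markers rose: 5 of 7 tested astrocyte markers and 6 of 8 microglial markers in the cortex, and 6 of 7 and 5 of 8 in the hippocampus. Markers of blood, 4 globin genes, were higher for 3 of 4 tested in the cortex (median log2 fold change 0.66, edgeR), where the blood list summed to between 659 and 1003 CPM in controls and to between 758 and 2257 CPM in GA-Camk2a mice. In the hippocampus their log2 fold changes were 1.02 to 1.22 (adjusted p 0.101 to 0.196), with sums of 562 to 847 CPM and of 677 to 5100 CPM. Of the perivascular macrophage markers, the 1 tested in the cortex, Pf4, rose (1.08, adjusted p = 0.0253), and 2 of 3 rose in the hippocampus, Mrc1 by 2.05 (adjusted p = 0.00501) and Pf4 by 2.36 (adjusted p = 0.0449). Their list summed to 7.66 to 17.3 CPM in control cortex and 15.5 to 26.5 CPM in GA-Camk2a cortex, and to 8.61 to 13.5 CPM and 13.9 to 106 CPM in the hippocampus. The top of both hippocampal ranges was 1 library, that of GA-Camk2a mouse 41, and the other 5 reached at most 1591 CPM for blood and 32.1 CPM for the macrophage markers. Without it the hippocampal log2 fold changes were 2.08 for Mrc1 (adjusted p = 0.00934), 1.11 for Pf4 (adjusted p = 0.0457) and 0.28 to 0.54 for the globin genes. The call of Pf4 in the hippocampus was lost without GA-Camk2a mouse 16 or control mouse 20, 31 or 37 (adjusted p 0.0699 to 0.245), and those of Pf4 and the globin genes in the cortex without control mouse 31 (0.0517 to 0.141) among others and by DESeq2 with batch (0.0761 to 0.205). The part of these cell types in the vessel lists and in the levels of the 10 genes was not tested.

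Many calls in the vessel lists also rested on single libraries. With any 1 library left out, the calls of Acta2, Myl9, Lamb2 and Sparcl1 in both tissues, of Dcn, Slc3a2, Slc6a20a, Slco2b1, Tnfrsf1a and Vtn in the cortex and of Angpt1, Id1 and Slc16a1 in the hippocampus held. The other named cortical calls were lost without control mouse 31 and without other libraries too: Cavin1 in 4 of 11 fits, Ackr1 in 5, Tagln in 7, Id1, Tfrc and Vcam1 in 8 each, Cldn12 in 9 and Sox17 in 2 of the 6 that tested it (adjusted p up to 0.180, edgeR). In the hippocampus, Atp13a5 was lost in 2 of 10 fits, Cav2 in 3, Tagln and Tnfrsf1a in 4 each, Emcn in 6, Ackr1, Cavin3 and Slc6a20a in 7 each, Vtn in 8 and Slco2b1 in 9 (adjusted p up to 0.204), each of them but Emcn without control mouse 20 among others.

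In the smooth muscle list, 3 of 4 tested genes were higher in the cortex (75%, against 12.5% of all genes) and 3 of 5 in the hippocampus (60%, against 10.9%). Acta2, the smooth muscle actin, had 17.4 ± 4.64 CPM in control cortex (SD, n = 5) and 29.5 ± 7.06 CPM in GA-Camk2a cortex (SD, n = 6), and it rose by 0.87 on the log2 scale (SE 0.19, adjusted p = 0.00356, edgeR). In the hippocampus, where controls had 15.0 ± 2.01 CPM (SD, n = 4), it rose by 0.80 (SE 0.15, adjusted p = 0.00332). Tagln, an actin-binding protein of smooth muscle, rose by 0.88 (adjusted p = 0.0406) and by 1.13 (adjusted p = 0.0302). Myl9, a myosin light chain, rose by 0.81 (adjusted p = 0.00337) and by 1.00 (adjusted p = 0.00269). All 3 lost their call in batch 2 of the cortex and in batch 1 of the hippocampus. The log2 fold change of Tagln moved with the batch, from 0.12 in batch 2 alone to 1.27 in batch 1 alone in the cortex and from 0.38 in batch 1 alone to 2.02 in batch 2 alone in the hippocampus. Over the alternatives other than left-out libraries, Myl9 ranged from 0.40 to 0.97 and from 0.65 to 1.37, and Acta2 from 0.57 to 0.91 and from 0.51 to 0.90.

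The pericyte and mural list had 2 of 10 tested genes higher in the cortex (20%, against 12.5% of all genes) and 3 of 13 in the hippocampus (23.1%, against 10.9%). Vtn, the matrix protein vitronectin made by pericytes, had 46.7 to 60.3 CPM in control cortex and 73.8 to 110 CPM in GA-Camk2a cortex, and it rose there (0.80, adjusted p = 0.000171, edgeR) and by 0.46 in the hippocampus (adjusted p = 0.0471). Slc6a20a, a proline transporter, rose by 0.87 (adjusted p = 0.00160) and 0.84 (adjusted p = 0.0281, held in 3 of the 10 fits with 1 library left out), and Atp13a5, a pericyte-enriched transport ATPase, by 0.78 in the hippocampus (adjusted p = 0.0210). In the basement membrane list, 3 of 8 (37.5%) and 4 of 11 (36.4%) were higher, against the same shares. They included Lamb2, a laminin chain, at 0.91 (adjusted p = 0.00312) and 0.96 (adjusted p = 0.00140), and Sparcl1, which astrocytes make in large amounts, at 0.49 (adjusted p = 0.000573) and 0.56 (adjusted p = 0.000154).

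Of the barrier transport list, 3 of 12 tested genes were higher in the cortex (25%, against 12.5% of all genes) and 3 of 14 in the hippocampus (21.4%, against 10.9%), and none lower. Slco2b1, an organic anion transporter, rose in both, by 1.08 (adjusted p = 0.00537, edgeR) and 0.65 (adjusted p = 0.0475). Control cortex had 2.92 to 5.92 CPM of Slco2b1, so it passed the count filter there through the GA-Camk2a libraries (6.62 to 10.9 CPM). Slc3a2, the heavy chain of the large amino acid carrier, rose by 0.63 in the cortex (adjusted p = 0.000339), and Tfrc, the transferrin receptor, by 0.45 (adjusted p = 0.0357). Slc16a1, the lactate carrier MCT1, rose by 0.55 in the hippocampus (adjusted p = 0.00612). Of the junction list, 1 of 9 tested genes passed in the cortex (11.1%), Cldn12, which fell (log2 fold change -0.47, adjusted p = 0.0479).

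Endothelial identity genes passed in 3 of 16 tested in the cortex (18.8%, against 12.5% of all genes) and in 2 of 18 in the hippocampus (11.1%, against 10.9%), counts from which nothing is read about the list. Of its genes, Id1, a target of BMP signalling, rose in both, by 0.54 (adjusted p = 0.0428, edgeR) and 0.80 (adjusted p = 0.00517), and Emcn, a capillary and venous sialomucin, by 0.83 in the hippocampus (adjusted p = 0.0439). In the activation and adhesion list, Tnfrsf1a, a TNF receptor, rose in the cortex (adjusted p = 0.00494) and by 0.94 in the hippocampus (adjusted p = 0.0198), and Vcam1 by 0.38 in the cortex (adjusted p = 0.0490). Ackr1, the atypical chemokine receptor of venules, fell in both tissues (log2 fold change -0.57, adjusted p = 0.0248, and -0.51, adjusted p = 0.0389). Angpt1, the pericyte- and astrocyte-made ligand of Tie2, rose by 1.28 in the hippocampus (adjusted p = 0.00209), the only call among the 10 tested genes of the VEGF and angiopoietin list in that tissue (10%, against 10.9% of all genes). Sox17, an arterial transcription factor, was the only cortical call among the 6 tested genes of the Wnt and barrier list (16.7%, against 12.5%), at 0.92 (adjusted p = 0.0211). Sox17 had 3.10 to 5.33 CPM in control cortex, and Angpt1 and Emcn 2.25 to 4.41 and 3.38 to 6.55 CPM in control hippocampus. They passed the count filter with the help of their GA-Camk2a libraries (4.58 to 8.72, 7.53 to 12.3 and 6.13 to 11.6 CPM). Their calls thus depend on the group where they were high, and nothing is read from them about their lists.

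The caveolae list, proteins of the membrane pits that carry vesicle transport, had 1 of 6 tested genes higher in the cortex (16.7%, against 12.5% of all genes) and 2 of 7 in the hippocampus (28.6%, against 10.9%), and the fold change was above 0 for 6 of 6 and 7 of 7. The calls were Cavin1, a coat protein of caveolae, at 0.71 in the cortex (adjusted p = 0.0245, edgeR), and Cav2, a caveolin, at 0.46 (adjusted p = 0.0158) and Cavin3 at 0.41 (adjusted p = 0.0309) in the hippocampus. In the perivascular fibroblast list 1 of 6 passed in the cortex (16.7%), Dcn, the matrix proteoglycan decorin (0.61, adjusted p = 0.00337). In the hippocampus its 8 tested genes had a median log2 fold change of 0.78, above 0 for 8 of 8, with adjusted p of 0.0686 to 0.991. That list summed to 142 to 253 CPM in control hippocampus and to 207 to 622 CPM in GA-Camk2a hippocampus, where mouse 41 was the highest and the other 5 reached at most 377 CPM.

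**Figure D4:**
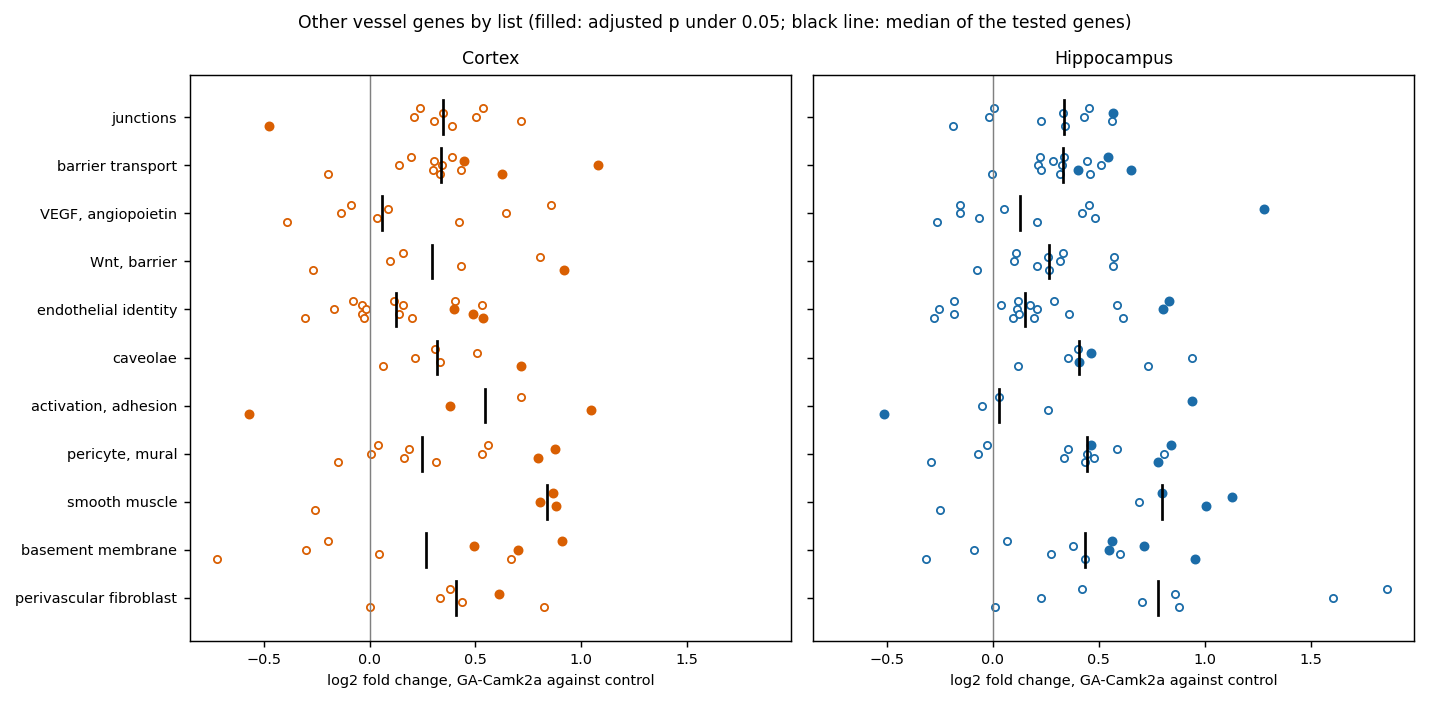
Log2 fold change between GA-Camk2a and control mice (x axis) of each tested gene of the 11 vessel lists (rows), in cortex (left) and hippocampus (right), with filled points for an adjusted p under 0.05 and a black line at each list's median. The smooth muscle list has its median at 0.84 and 0.80, and the 2 cortical genes and 1 hippocampal gene that fell are Cldn12 and Ackr1.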

How the data were processed

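Cortex and hippocampus RNA of 11 mice was sequenced with prime-seq in 21 libraries. The authors made counts per gene with zUMIs on GRCm39 with GFP added; the submitters' processing notes list FastQC 0.11.8, cutadapt 1.12, STAR and DESeq2 1.44. The deposited values are whole-number counts, not normalized. Whether molecular identifiers or reads were counted, the annotation release, introns and strand use are not given in the sources used here, so counting error may understate technical error.

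Symbols came from a GENCODE annotation of GRCm38 by Ensembl number (43308 of 64361 genes); GFP was left out of the library totals. Groups, mouse numbers and batches came from the labels. Library pairs of 1 group were compared at genes whose counts summed to 20 or more: chi-square per degree of freedom ranged from 2.10 to 15.1 and 0 of 46 pairs were identical. For these mice the study's methods name DESeq2 and no covariate is given; here edgeR 4.0.16 (R 4.3.3; TMM, filterByExpr with a minimum count of 10, quasi-likelihood F-test) was used with batch as a covariate, p-values adjusted over all genes tested, and the script tested on simulated data. DESeq2 1.42.0, normalizations, filters, thinned counts, batches alone and left-out libraries were alternatives. Log2 CPM for correlations used a prior count of 2.

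The members and lists were chosen with earlier results of these data known. Text names all 10 members, up to 3 called genes with the largest change per list and tissue, and the 5 genes most like the members' mean. A list gene that this rule would name is not reported here. The 10 mice with both tissues pair libraries by mouse number; deviations of the same mouse correlated between -0.23 and 0.28 (median 0.037, 5 of 10 over 0.1).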

Additional observations from a re-analysis of the deposited data

Results flagged for a closer look

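GFP, which belongs to the transgene and entered no comparison, gave 4 counts in the cortex library of GA-Camk2a mouse 23, above the 2 counts of the highest control cortex library. Control cortex libraries reached 2 counts, so the row does not separate the genotypes at this depth. Of the 40 sets of libraries in a group tested over the 10 genes, 0 held a library that stood apart by Dixon's test.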

How the results depend on the processing

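Counts of the 10 genes past the threshold kept their value under DESeq2 with and without batch, other normalizations, no batch term and no filter on low counts, except in the tissue comparison of GA-Camk2a mice (4 to 6). Thinning to the smallest library gave 1 in the cortex (Slc2a1) and 0 in the hippocampus, where Vwf was under the filter. In batch 1 alone the hippocampus had 0 and the control tissue comparison 1; in batch 2 alone these were 0 and 0 and the GA-Camk2a tissue comparison 3. With 1 library left out the counts ranged from 0 to 1 (cortex), 0 to 2 (hippocampus), 2 to 5 (tissue, controls), 4 to 6 (tissue, GA-Camk2a) and 0 to 0 (interaction). The mouse block left 2, 6 and 0 past the threshold in the control tissue, GA-Camk2a tissue and interaction comparisons, as without it, and changed no other call. A batch term of its own in each tissue, chosen after seeing the data, gave 2, 4 and 0, with Pecam1 at -0.65 (adjusted p = 0.0789) in GA-Camk2a mice.

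Vessel lists, whose alternatives were applied after seeing the data, as were those of the blood and macrophage markers, moved more. From 21 calls in the cortex, DESeq2 gave 11 with and 12 without batch, thinning 9, batch 1 alone 12 and batch 2 alone 0, with 13 to 20 when 1 library was left out. From 21 in the hippocampus these were 12, 13, 10, 0 and 8, with 10 to 19. The lowest cortical value was without control mouse 31 (13). In the hippocampus it was 10 without control mouse 20 or GA-Camk2a mouse 35, 12 without control mouse 31 or 37 and 13 without GA-Camk2a mouse 23.

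Small log2 fold changes turned sign. In the cortex, batch 2 alone gave Pecam1 0.0025 and Rgs5 -0.17. In the hippocampus, Mfsd2a was 0.0062 without batch, 0.0091 with upper quartile scaling, 0.14 thinned and 0.13 in batch 2; Flt1 was -0.083 thinned and Rgs5 -0.016 in batch 1. Between tissues, batch 2 alone gave Cldn5 0.13 and Pecam1 0.19 in GA-Camk2a mice, and Vwf was 0.022 in controls with its own batch terms. With 1 library left out, Flt1 ranged from -0.44 to 0.038 and Pecam1 from -0.33 to 0.038 (cortex), Mfsd2a from -0.11 to 0.18 (hippocampus) and -0.0076 to 0.25 (tissue, GA-Camk2a), and Vwf from -0.14 to 0.079 (tissue, controls). The cause of these changes was not tested. The median correlation of the pairs was 0.20 and 0.15 with raw totals and 0.13 and 0.030 as Spearman's rho.

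Vwf had 3 to 41 counts per library, so its fold changes carry the widest counting error of the 10 genes.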
